A study of Mus musculus with 18 samples.

Results

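The comparison set myeloid progenitors (MP) against haematopoietic stem cells, both cultured with doxycycline to switch on reprogramming factors. It asked which differences between the cell types remained in that state. It rests on 6 libraries, 2 from MP and 4 from stem cells, of 18 in the series. The libraries were chosen by their labels, and cell types were compared within each day. RNA sequencing had been done on blood cells and fibroblasts of C57BL/6 mice derived entirely from induced pluripotent stem (iPS) cells, in which doxycycline switches on Oct4 (encoded by Pou5f1), Sox2, Klf4 and c-Myc. All groups used here carry these transgenes, the controls included. The age of the mice is not given in the labels.

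The MP libraries induced with doxycycline for 2 and 4 days were MP 2D and MP 4D. Long-term haematopoietic stem cells (LT-HSC) and short-term haematopoietic stem cells (ST-HSC) gave LT-HSC 2D, LT-HSC 4D, ST-HSC 2D and ST-HSC 4D. The same cell types cultured for the same times without doxycycline gave 6 N libraries, and uncultured cells gave 3 more. The titles mark the 6 N libraries as cultures without doxycycline, as the series design describes them, although the doxycycline field of each reads Yes. The titles were used. Each blood library was amplified from 25 hand-picked cells with a poly-T primer, and each cell type in each condition had 1 library. No label says whether libraries came from separate animals, so every p-value below measures the spread between cell types and days and not between animals.

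Myeloid progenitors are committed to making granulocytes and monocytes and are known for granule proteases and cytokine receptors. Haematopoietic stem cells keep all blood lineages, under transcription factors such as Gata2, Lmo2 and Tal1, the HoxA cluster and surface proteins such as Sca-1 and endoglin. Oct4, Sox2, Klf4 and c-Myc together replace such cell type programmes with that of pluripotent cells, and early in this process the programme of the starting cell is silenced unevenly.

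Values are FPKM (fragments per kilobase of transcript, scaled to the size of the library), a level per length. Differences are MP minus the mean of LT-HSC and ST-HSC on log2(FPKM + 1), with the standard error (SE) of the fit, so they are understated for low genes. A gene listed at 0 may be unexpressed or missed. The 6 D libraries summed to between 707877 and 767866 FPKM and held 10758 to 11365 genes at 1 FPKM or more. The read depth is unknown. In such pooled cells fewer cells of a type and less RNA per cell cannot be told apart.

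Before the comparison, 3 features of the libraries touch its results. The uncultured LT-HSC library carried progenitor granule genes. Elane (neutrophil elastase) was at 19200 FPKM in uncultured MP, against 13600 in uncultured LT-HSC and 44.7 in uncultured ST-HSC. The stem label of that library also held Ly6a (Sca-1), at 0.889 FPKM in uncultured MP, against 367 in uncultured LT-HSC and 177 in uncultured ST-HSC. Second, the ST-HSC libraries kept leukocyte genes under induction. The 28 phagocyte and leukocyte effector genes summed to 893 and 158 FPKM in MP 2D and 4D, against 815 and 355 in LT-HSC 2D and 4D and 4500 and 3560 in ST-HSC 2D and 4D. In addition, LT-HSC 2D held 16200 FPKM of Igkc, the immunoglobulin kappa constant region of B cells, which was listed at 0 in the other 5 D libraries, while Cd79a, a B cell receptor subunit, was at 0 in all 6. Of the fibroblast markers, Dcn was listed at 0 and Col1a1 stayed at or below 1.10 FPKM in these 6 libraries, while Col1a2 reached 32.3 FPKM in MP 2D. The 12 fibroblast genes summed to 118 and 139 FPKM in MP 2D and 4D, against 422 and 206 in LT-HSC and 279 and 196 in ST-HSC, most of it Fstl1. The part of other cell types in the results was not tested.

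The granule programme that marks the MP label was almost absent from induced cells. Mpo (myeloperoxidase) was at 9.51 and 8.91 FPKM in MP 2D and 4D, against 9.67 and 0.387 in LT-HSC 2D and 4D and 45.1 and 8.45 in ST-HSC 2D and 4D. MP was below both stem cell types on day 2, close to LT-HSC, and above both on day 4, close to ST-HSC. In N cultures Mpo was at 7850 and 8540 FPKM in MP on days 2 and 4, against 16.8 and 10.7 in LT-HSC and 2110 and 4310 in ST-HSC, with no overlap. Prtn3, Elane and Ctsg, which encode the serine proteases of primary granules, did not pass 70.5 FPKM in any D library, and their highest D level was in ST-HSC 2D.

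Under induction 9 of 12254 tested genes passed the test for MP against stem cells (limma, Benjamini-Hochberg adjusted p below 0.05, two-sided). Of these 7 were higher in MP (0.0571% of the genes tested) and 2 were lower (0.0163%), and 1242 had an unadjusted p below 0.05. The higher genes were mostly listed at or near 0 in the stem cells and in N cultures, so no fold is given for them. The fit takes its spread from D and N libraries together, so genes near 0 throughout N pass more easily. Their low N level is thus partly built into the calls, and the 6 D libraries alone gave 0 calls.

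Apod, which encodes the lipid-binding apolipoprotein D, had 832 and 75.5 FPKM in MP 2D and 4D, against 0 and 0 in LT-HSC 2D and 4D and 5.16 and 0 in ST-HSC 2D and 4D. Its fitted difference was 7.32 ± 0.89 (SE), with an adjusted p of 0.0345 in limma. MP lay above both stem cell types on both days, as it did for all 7 higher genes. Dbx1, a homeobox factor of the neural tube, had 103 and 130 FPKM in MP 2D and 4D, against 0 and 11.3 in LT-HSC and 0 and 1.65 in ST-HSC (difference 5.61 ± 0.73, limma adjusted p = 0.0411). Dbx1 was listed at 0 in all MP libraries other than these.

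Avil, the actin-binding protein advillin of sensory neurons, had 54.9 and 83.3 FPKM in MP 2D and 4D, against 1.58 and 1.27 in LT-HSC and 0 and 3.35 in ST-HSC, and its limma adjusted p was 0.0345. Also higher were Cnpy1, a member of the canopy family, Wnt2, a secreted WNT ligand, and Acsbg1, an acyl-CoA synthetase best known from brain. Their MP levels in D lay between 9.48 and 22.4 FPKM, and their highest stem cell level was 0.805 FPKM, in LT-HSC 2D for Acsbg1 (limma adjusted p = 0.0479 each). Of these 3, Acsbg1 alone was above 0 in MP N cultures, at 1.49 and 0.621 FPKM on days 2 and 4.

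Gata2, a zinc finger factor needed for stem cell maintenance, was the larger of both lower differences. It had 1.86 and 1.2 FPKM in MP 2D and 4D, against 106 and 25.0 in LT-HSC 2D and 4D and 48.1 and 34.7 in ST-HSC 2D and 4D. MP lay below every stem cell library (difference -4.23 ± 0.62, limma adjusted p = 0.0479). In N cultures MP did not lie on 1 side, with 51.8 and 16.5 FPKM on days 2 and 4, against 70.3 and 64.8 in LT-HSC and 21.2 and 23.6 in ST-HSC. Pck2, the mitochondrial phosphoenolpyruvate carboxykinase, had 5.60 and 4.22 FPKM in MP 2D and 4D, against 22.8 and 22.6 in LT-HSC and 30.4 and 21.0 in ST-HSC (difference -2.09 ± 0.31, limma adjusted p = 0.0479).

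The next lower genes by p did not pass the test. Lmo2, the bridging protein of the stem cell transcription complex, had 15.6 and 0 FPKM in MP 2D and 4D, against 308 and 13.4 in LT-HSC and 457 and 181 in ST-HSC (difference -5.09 ± 0.78, limma adjusted p = 0.0626). Tlcd2 and Tmem176a, both encoding membrane proteins, had differences of -3.94 and -3.08 and limma adjusted p of 0.0577 and 0.0651. The 9 calls depended on single libraries, and leaving out 1 library at a time gave 0 to 37 calls. It gave 0 without MP 2D, MP 4D or any of the N libraries other than LT-HSC 4N, 1 without LT-HSC 4N or ST-HSC 4D, 3 without LT-HSC 2D, 9 without ST-HSC 2D, of which 3 were among the original 9, and 37 without LT-HSC 4D.

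**Figure D1:**
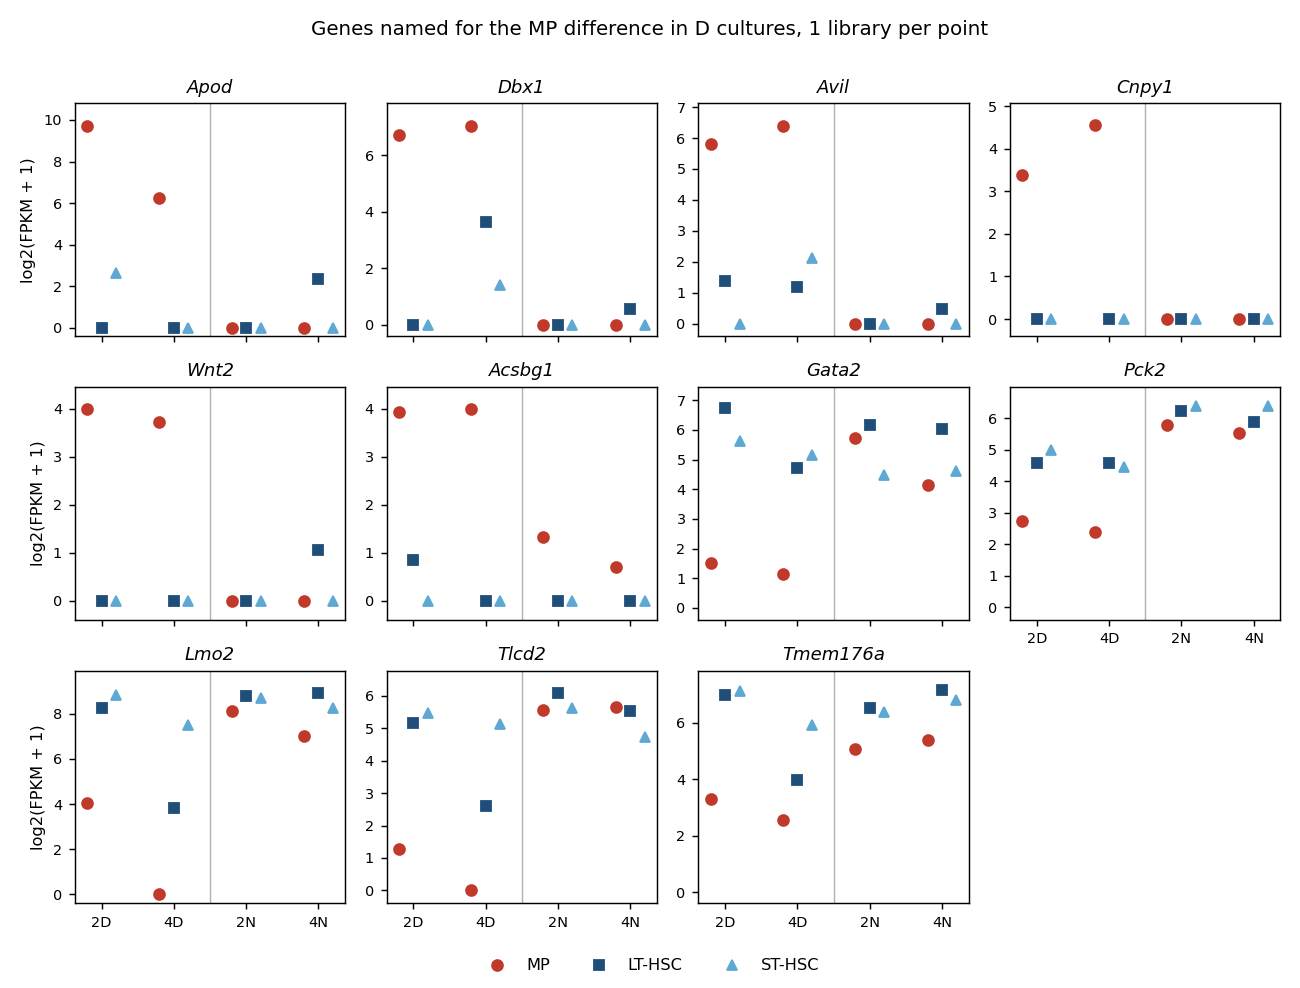
Level of 11 genes named for the MP difference in D cultures, as log2(FPKM + 1), in induced (2D, 4D) and control (2N, 4N) cultures, with 1 library per point. MP points stand above both stem cell types in D for the first 6 genes and below both for the last 5. In N cultures MP stands outside both stem cell types on both days for Acsbg1, Pck2, Lmo2 and Tmem176a among them, by smaller distances.

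The regions before the start of the called genes are shown because these genes differed together between cell types that carry the same factors. RefSeq (GRCm38.p6) gave a single promoter window for 6 of the 9 genes, and the 250 bases before the start are given 5′ to 3′ for the largest difference, the 3 genes with a motif match and 1 lower gene. Capitals mark matches, on either strand, to an octamer (ATGCAAAT), a SOX motif (CATTGT), an E-box (CACGTG), a KLF motif (GGGTGTGG) or a GATA motif (AGATAA).
Apod, chr16:31314809-31315058, minus strand: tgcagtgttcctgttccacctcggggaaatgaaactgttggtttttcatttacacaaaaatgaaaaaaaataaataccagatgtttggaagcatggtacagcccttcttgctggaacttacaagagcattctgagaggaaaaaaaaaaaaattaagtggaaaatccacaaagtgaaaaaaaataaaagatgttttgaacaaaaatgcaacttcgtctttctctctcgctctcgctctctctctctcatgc
Dbx1, chr7:49636836-49637085, minus strand: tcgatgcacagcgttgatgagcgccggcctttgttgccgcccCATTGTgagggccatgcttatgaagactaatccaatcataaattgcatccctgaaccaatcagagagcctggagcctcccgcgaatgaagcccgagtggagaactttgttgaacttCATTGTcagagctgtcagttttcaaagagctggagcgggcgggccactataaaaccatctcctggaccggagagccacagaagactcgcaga
Avil, chr10:127000459-127000708, plus strand: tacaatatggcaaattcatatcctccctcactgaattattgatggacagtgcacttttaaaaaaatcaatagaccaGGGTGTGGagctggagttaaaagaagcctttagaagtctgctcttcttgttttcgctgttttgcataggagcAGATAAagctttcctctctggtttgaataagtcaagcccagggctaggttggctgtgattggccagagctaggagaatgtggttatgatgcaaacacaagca
Acsbg1, chr9:54661886-54662135, minus strand: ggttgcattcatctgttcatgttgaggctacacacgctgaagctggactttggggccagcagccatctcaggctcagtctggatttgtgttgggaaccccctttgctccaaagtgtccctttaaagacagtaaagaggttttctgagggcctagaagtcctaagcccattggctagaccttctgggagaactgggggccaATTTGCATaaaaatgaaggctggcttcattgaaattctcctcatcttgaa
Pck2, chr14:55540016-55540265, plus strand: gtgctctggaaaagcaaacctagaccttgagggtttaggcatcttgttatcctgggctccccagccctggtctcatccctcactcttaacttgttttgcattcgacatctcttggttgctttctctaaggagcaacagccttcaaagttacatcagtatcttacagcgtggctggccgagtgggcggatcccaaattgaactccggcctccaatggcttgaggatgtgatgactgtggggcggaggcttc
Acsbg1 held the octamer once, on the opposite strand, a motif found in 1.60% of 32851 RefSeq windows of this length. Dbx1 held the SOX motif at 2 positions, which 10.7% of windows hold at least once. Avil held the KLF motif, found in 3.20% of windows, and the GATA motif, found in 9.99%. The E-box, found in 6.02% of windows, was in none of the 6 windows, and Apod, Wnt2 and Pck2 held none of the 5 motifs. A match is a description of letters only, and binding was not measured.

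Several stem cell transcription factors stood lower in MP than in the induced stem cells. Over the 7 heptad factors, which bind together at stem cell enhancers, the median difference was -2.56 in D and -0.395 in N cultures, beside 0 in D and -0.0464 in N over all genes tested. Gata2, Lmo2 and Tal1 lay below both stem cell types on both days in D, and 1 of them, Gata2, passed the test. Over all genes 14.6% lay above and 11.1% lay below both stem cell types on both days in D. Tal1, the basic helix-loop-helix factor of early blood, had 22.0 and 6.46 FPKM in MP 2D and 4D, against 35.4 and 20.6 in LT-HSC and 24 and 18.7 in ST-HSC (limma adjusted p = 0.536). Its day 2 levels were close to each other in MP and ST-HSC.

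The other heptad factors shared low levels between MP and LT-HSC on day 4. Erg, an ETS factor of stem cells, had 0.329 and 0 FPKM in MP 2D and 4D, against 9.92 and 0 in LT-HSC and 24.4 and 6.70 in ST-HSC. Fli1, a related ETS factor, was listed at 0 on both days in MP, against 3.92 and 0 in LT-HSC and 11.4 and 3.32 in ST-HSC. Lyl1, a helix-loop-helix partner of Tal1, had 1.42 and 0 FPKM in MP, against 7.49 and 0 in LT-HSC and 28.8 and 31.0 in ST-HSC. Against ST-HSC alone all 7 heptad factors lay lower in MP on both days, and against LT-HSC alone 3 lay lower and 1 higher. Over all genes tested 26.7% lay lower and 27.5% higher in MP on both days against ST-HSC alone, and 25.2% lay lower and 27.2% higher against LT-HSC alone.

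The Hox genes and their Meis and Pbx partners, which set stem cell self-renewal, had a median difference of -1.64 in D and -1.29 in N cultures over 13 tested genes. Of these 6 lay below both stem cell types on both days in D (Hoxa5, Hoxa7, Hoxa9, Hoxa10, Hoxb2 and Hoxb7), none lay above, and none passed the test. The shares over all genes were 11.1% below and 14.6% above. Hoxa9 had 14.1 and 9.89 FPKM in MP 2D and 4D, against 48.6 and 44.3 in LT-HSC and 66.8 and 35.7 in ST-HSC. Hoxa10 had 1.78 and 0 FPKM in MP 2D and 4D, against 19.2 and 20.6 in LT-HSC and 28.6 and 19.7 in ST-HSC (difference -3.77 ± 0.72, limma adjusted p = 0.0976). Hoxb7 was listed at 0 in MP on both days, against 7.72 and 10.7 FPKM in LT-HSC and 2.70 and 3.88 in ST-HSC. The count did not rest on ST-HSC, since 9 of the 13 lay lower in MP on both days against each stem cell type alone, where 25.2% (LT-HSC) and 26.7% (ST-HSC) of all genes did.

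Stem cell surface proteins had a median difference of -1.36 in D and -1.98 in N cultures over 24 genes. In D, 6 lay below both stem cell types on both days (Cd93, Eng, Kit, Ly6a, Robo4 and Tek), none lay above, and none passed the test. Over all genes 11.1% lay below and 14.6% above. Against ST-HSC alone 16 lay lower in MP and none higher, and against LT-HSC alone 7 lay lower and 3 higher. Over all genes 26.7% lay lower against ST-HSC alone and 25.2% against LT-HSC alone. Ly6a (Sca-1, the marker by which mouse stem cells are separated from MP) had 30.8 and 53.4 FPKM in MP 2D and 4D, against 259 and 149 in LT-HSC and 169 and 148 in ST-HSC. It was listed at 0 in MP N cultures on both days, against 76.8 and 23.3 FPKM in LT-HSC N and 20.2 and 14.3 in ST-HSC N, so induced MP carried Ly6a that MP in N cultures did not show. Eng (endoglin, a TGF-beta co-receptor) had 10.5 and 1.18 FPKM in MP 2D and 4D, against 184 and 32.7 in LT-HSC and 80.4 and 40.6 in ST-HSC (difference -3.76 ± 0.68, limma adjusted p = 0.0831). Mecom, a zinc finger factor of long-term stem cells, had 6.64 and 6.27 FPKM in MP 2D and 4D, against 94.2 and 24.9 in LT-HSC and 85.2 and 15.8 in ST-HSC, and was listed at 0 in MP N cultures.

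In other stem cell lists most genes did not lie on 1 side of both stem cell types on both days. The same holds over all genes, of which 14.6% lay above and 11.1% below in D. Of 24 stem-restricted signature genes, 1 lay above and 4 lay below both stem cell types on both days in D, with a median of -0.981 in D and -2.13 in N cultures. Of 16 other stem cell factors, 1 lay above and 2 below, with a median of -0.448 in D and -1.38 in N. Procr, the protein C receptor of stem cells, had 2.12 and 0 FPKM in MP 2D and 4D, against 46.7 and 0 in LT-HSC and 752 and 391 in ST-HSC. Of the 4 Gimap GTPases of lymphoid and stem cells, all lay lower in MP against ST-HSC alone and none against LT-HSC alone, since all 4 were listed at 0 in MP 4D and in LT-HSC 4D. Their median difference was -3.25 in D and -3.80 in N cultures. Of 9 endothelial genes, 4 lay below both stem cell types in D and none above, with a median of -2.25 in D and -1.31 in N cultures, and all 9 lay lower against ST-HSC alone and 4 against LT-HSC alone, beside 26.7% and 25.2% of all genes.

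**Figure D2:**
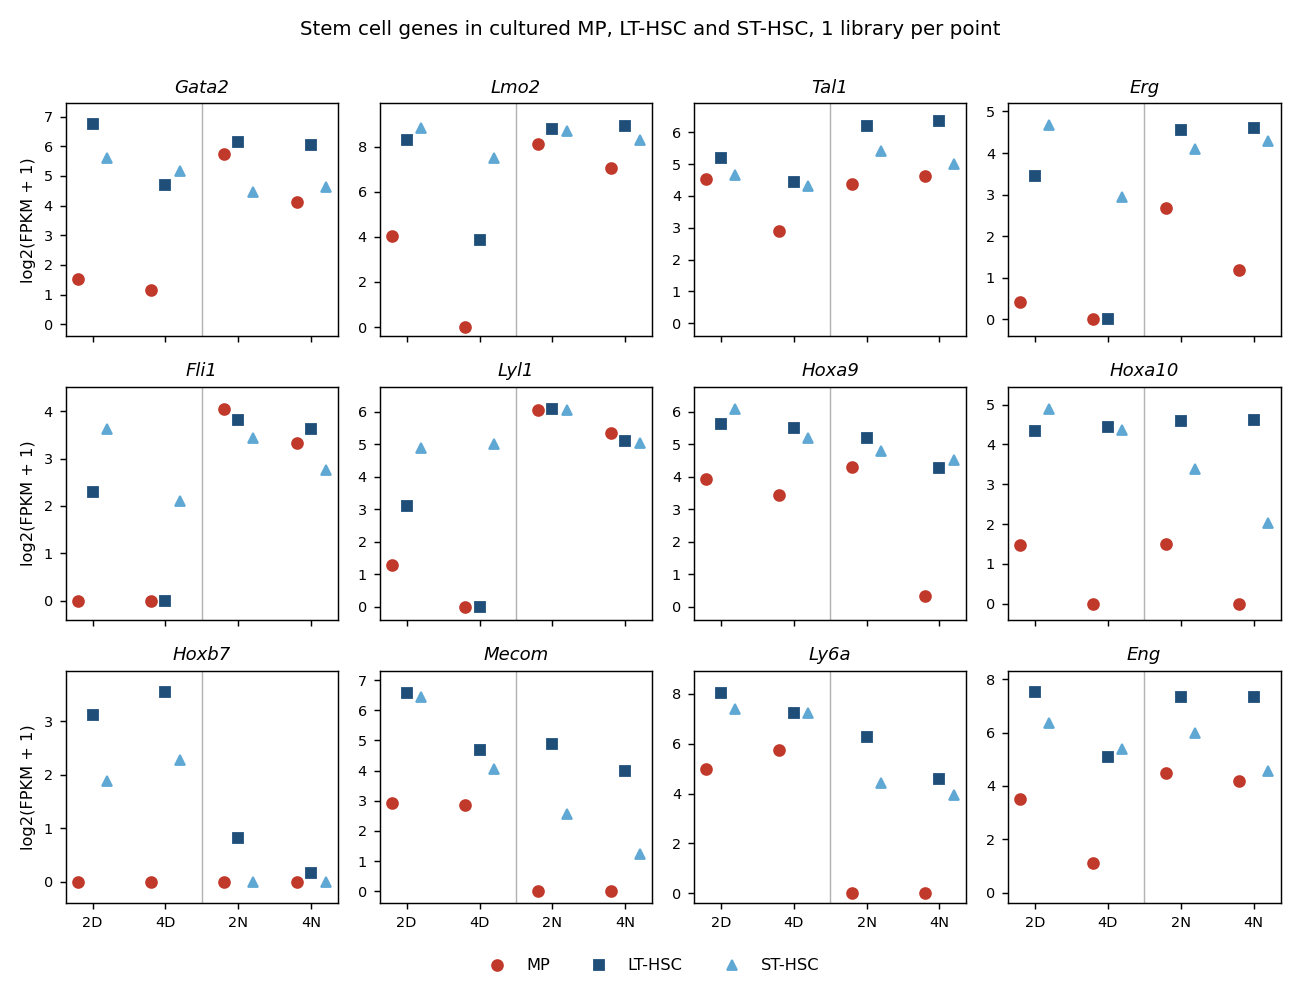
Level of 12 stem cell genes as log2(FPKM + 1) in induced (2D, 4D) and control (2N, 4N) cultures, with 1 library per point. MP lies below both stem cell types on both days in D for Gata2, Lmo2, Tal1, Hoxa9, Hoxa10, Hoxb7, Mecom, Ly6a and Eng, and for Erg, Fli1 and Lyl1 it shares 0 with LT-HSC 4D.

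Myeloid genes, which separated MP from stem cells in N cultures, had median differences near or below 0 in D. The 11 primary granule genes had a median difference of -0.00727 in D and 3.83 in N cultures. All 11 lay above both stem cell types on both days in N, against a background of 14.8% above and 17.1% below over all genes. In D 1 lay above (Calr, the chaperone calreticulin) and 1 below (Srgn, the granule proteoglycan serglycin). Against LT-HSC alone 5 lay above and 1 below in D, and against ST-HSC alone 1 lay above and 5 below, so the stem cell types lay on different sides of MP. Late granule genes (-0.138 in D and 2.97 in N over 12 genes), mast cell and basophil genes (0 and 4.11 over 13 genes) and macrophage and dendritic genes (0 and 2.61 over 8 genes) also had lower medians in D than in N. The late granule genes summed to 0 FPKM in MP 4D, LT-HSC 4D and ST-HSC 4D, and the mast cell and basophil genes to 4.43 to 32.1 FPKM in the D libraries. Members silent in D passed the filter on low values only through their N levels, so medians near 0 in D are partly built in. The macrophage and dendritic genes summed to 936 and 694 FPKM in MP 2D and 4D, against 2630 and 512 in LT-HSC and 4260 and 572 in ST-HSC, so MP was lowest on day 2 and highest on day 4.

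Cytokine receptors of the myeloid lineage had a median difference of -0.696 in D and 1.13 in N cultures over 13 genes. In D none lay above both stem cell types and 4 lay below (Csf2ra, Ifngr1, Il4ra and Il6st), and none passed the test. Over all genes 14.6% lay above and 11.1% below. Against ST-HSC alone 8 receptors lay lower in MP and none higher, and against LT-HSC alone 4 lay lower and 3 higher. Csf2ra, the GM-CSF receptor alpha chain, had 0.821 and 0.547 FPKM in MP 2D and 4D, against 5.61 and 1.10 in LT-HSC and 10.6 and 8.51 in ST-HSC. In N cultures it had 58.6 and 58.0 FPKM in MP, against 6.67 and 8.01 in LT-HSC and 10.2 and 8.21 in ST-HSC, so the groups stood apart in opposite order. Among 28 leukocyte effectors, 3 lay below in D (Alox5ap, Coro1a and Emb) and none above, with a median of -0.935 in D and 2.39 in N cultures. The 3 below are a share near the 11.1% of all genes. Against ST-HSC alone 17 lay lower and none higher, and against LT-HSC alone 3 lay lower and 4 higher, beside 26.7% and 25.2% of all genes lower. Coro1a (coronin 1A, an actin regulator of leukocytes) had 124 and 5.40 FPKM in MP 2D and 4D, against 202 and 24.9 in LT-HSC and 2250 and 1910 in ST-HSC.

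**Figure D3:**
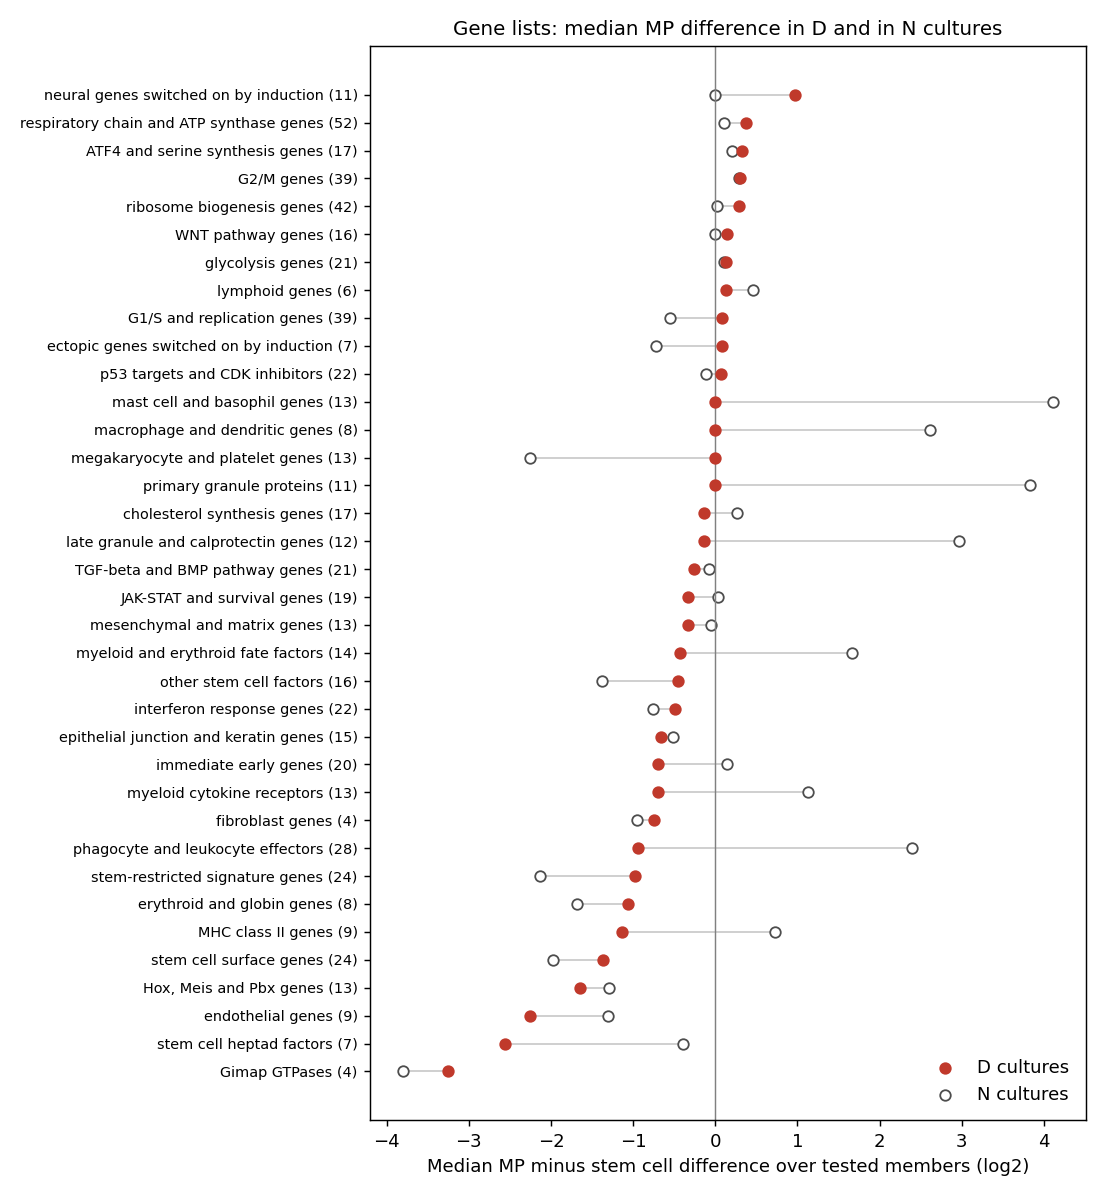
Median MP minus stem cell difference (log2) over the tested members of each gene list with at least 4 tested members, for D cultures (filled points) and N cultures (open points), with the number of tested members in brackets. Myeloid lists at 2.39 to 4.11 in N lie between -0.935 and 0 in D, while the heptad factors stand at -2.56 in D and -0.395 in N. Members silent in every D library have D differences near 0 and passed the filter on low values only through their N levels.

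In N cultures 24 genes passed the test, 12 higher and 12 lower in MP (0.0979% each), with 1488 at an unadjusted p below 0.05. Of the 12 higher genes, 10 (83.3%) were below 1 FPKM in all 6 D libraries, beside 1.97% of all genes tested. The fit takes its spread from D and N libraries together, so genes silent in D pass more easily. Their silence in D is thus partly built into the N calls. Of the 12, 1 (Gstm1) lay above both stem cell types on both days in D, beside 14.6% of all genes. Gstm1, a glutathione transferase, had 276 and 36.1 FPKM in MP 2D and 4D, against 118 and 25.3 in LT-HSC and 210 and 25.5 in ST-HSC. Cebpe, the factor of terminal granulocyte differentiation, and Fcer1a and Ms4a2, subunits of the IgE receptor of mast cells and basophils, were listed at 0 in every D library. In N cultures Fcer1a had 35.8 and 199 FPKM in MP on days 2 and 4, against 0 and 0 in LT-HSC and 0 and 5.41 in ST-HSC (limma adjusted p = 0.0151).

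Of the 12 genes lower in MP in N cultures, 7 lay below both stem cell types on both days in D, beside 11.1% of all genes. None was below 1 FPKM throughout D. Among those named by rank these were Dnmt3b, Hoxa7, Ly6a, Tmem191c and Tspan13. Dnmt3b, a de novo DNA methyltransferase, had 3.49 and 2.23 FPKM in MP 2D and 4D, against 13.0 and 8.60 in LT-HSC and 15 and 21.1 in ST-HSC (difference -1.96 in D and -2.64 in N cultures). Tspan13, a tetraspanin, had 165 and 140 FPKM in MP 2D and 4D, against 279 and 296 in LT-HSC and 344 and 263 in ST-HSC (difference -0.95 in D and -3.55 in N cultures). Sox4, an HMG-box factor, lay on the other side, with 225 and 76.1 FPKM in MP 2D and 4D, against 106 and 17.4 in LT-HSC and 139 and 40.6 in ST-HSC.

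The difference between the D and the N contrast was tested in the same fit, and no gene passed (0.0% of 12254 genes in limma). At an unadjusted p below 0.05 there were 1082 genes, and the smallest adjusted p was 0.225. With a pseudocount of 5, without limma's trend and robust options or against LT-HSC alone, 23, 10 and 5 genes passed. Over all genes tested, 700 had MP outside both stem cell types on the same side in D and in N, and 330 on opposite sides.

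Differences present in uncultured cells were set against the D libraries, which had no part in choosing them. In uncultured cells 373 genes (3.04%) were at least 4-fold higher in MP than in each stem cell library and 459 (3.75%) at least 4-fold lower, on the log2(FPKM + 1) scale. Of the 373 higher genes, 53 (14.2%) lay above both stem cell types on both days in D and 77 (20.6%) in N, where the shares over all genes were 14.6% in D and 14.8% in N. Of the 459 lower genes, 76 (16.6%) lay below in D and 147 (32.0%) in N, where the shares over all genes were 11.1% in D and 17.1% in N. The share of starting MP-higher genes that remained in D was thus near the background, and that of starting MP-lower genes was above it. On the opposite side in D lay 25 of the 373 (6.7%) and 38 of the 459 (8.28%), beside 11.1% and 14.6% of all genes. The median differences of both sets in D were 0.137 and -0.467, beside 0 over all genes. Below 1 FPKM in all 6 D libraries were 6.7% of the 373 and 2.83% of the 459, beside 1.97% of all genes.

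When MP also had to differ by at least 2-fold from each stem cell library on both days, 4 of the 373 starting MP-higher genes (1.07%) remained in D, beside 1.35% of all genes above. Of the 459 starting MP-lower genes 28 (6.10%) remained under that condition, beside 1.22% of all genes below. Without the uncultured LT-HSC library, which carried granule genes, the starting sets were 1175 and 1048 genes, and 14.0% and 14.7% of them remained in D. The shares over all genes tested were 14.6% above and 11.1% below. With that library but no filter on mean FPKM, the sets were 462 and 531 genes. Of these 12.1% and 14.5% remained in D, and no share over all genes without the filter was taken. Starting from N cultures, 304 genes lay above and 252 below both stem cell types on both days with a fitted difference of at least 4-fold. In D 30 of the 304 (9.87%) and 51 of the 252 (20.2%) kept their side, the first share below the 14.6% of all genes and the second above the 11.1%. Of the 304, 70 (23.0%) were below 1 FPKM in all 6 D libraries, beside 1.97% of all genes tested. Such genes passed the filter on low values only through their N levels.

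**Figure D4:**
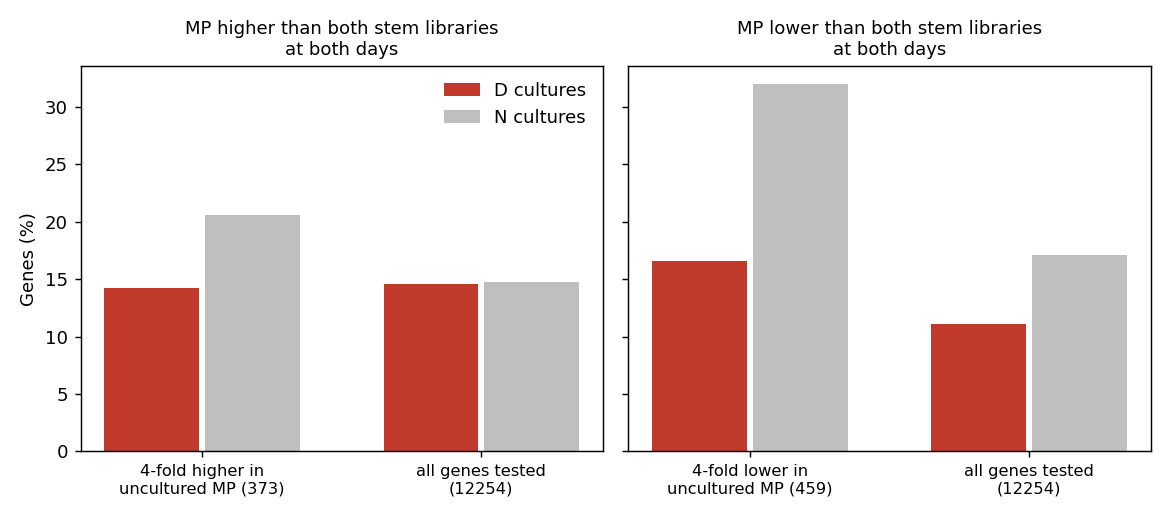
Share of genes (%) with MP above both stem cell libraries on both days (left) or below both (right), in D and in N cultures, for the genes at least 4-fold apart in uncultured cells and for all genes tested. Genes that started higher in MP remain in 14.2% of cases in D, near the 14.6% of all genes, and genes that started lower remain in 16.6%, against 11.1% of all genes.

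In the other direction, the genes that set MP apart in D were traced back. With MP outside both stem cell types on both days and a fitted difference of at least 4-fold, 171 genes were higher and 170 lower in induced MP. Of the 171 higher genes, 25 (14.6%) lay on the same side in N cultures, near the 14.8% of all genes, and 50 (29.2%) were below 1 FPKM in all 9 N and uncultured libraries, beside 2.37% of all genes tested. A gene silent before induction passed the filter on low values only through its D levels, so that last share is no sign of a difference. Of the 170 lower genes, 57 (33.5%) lay on the same side in N cultures, beside 17.1% of all genes, 33 were at least 4-fold lower in uncultured MP, and 9 (5.29%) were below 1 FPKM before induction.

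Genes that came up or went down under induction were counted over sets chosen without the D libraries, as a description with 1 library per value. Of 22203 genes below 1 FPKM in all 9 N and uncultured libraries, 64 and 88 were at 10 FPKM or more in MP 2D and 4D, against 49 and 62 in LT-HSC 2D and 4D and 64 and 40 in ST-HSC 2D and 4D. The MP count was the same as that of ST-HSC on day 2 and was the highest of the 3 on day 4. At 20 FPKM or more there were 36 and 46 genes in MP 2D and 4D, against 20 and 25 in LT-HSC and 25 and 10 in ST-HSC.

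Of 3474 genes at 20 FPKM or more in all 6 N libraries, 47 and 118 were at 5 FPKM or less in MP 2D and 4D, against 42 and 118 in LT-HSC 2D and 4D and 20 and 7 in ST-HSC 2D and 4D. MP and LT-HSC had close counts on each day, and those of ST-HSC were smaller. At 2 FPKM or less the counts were 28 and 91 in MP 2D and 4D, against 24 and 89 in LT-HSC and 8 and 3 in ST-HSC. The median level over the 3474 genes was 77.4 and 79.7 FPKM in MP 2D and 4D, against 74.1 and 78.1 in LT-HSC and 73.1 and 80.6 in ST-HSC.

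**Figure D5:**
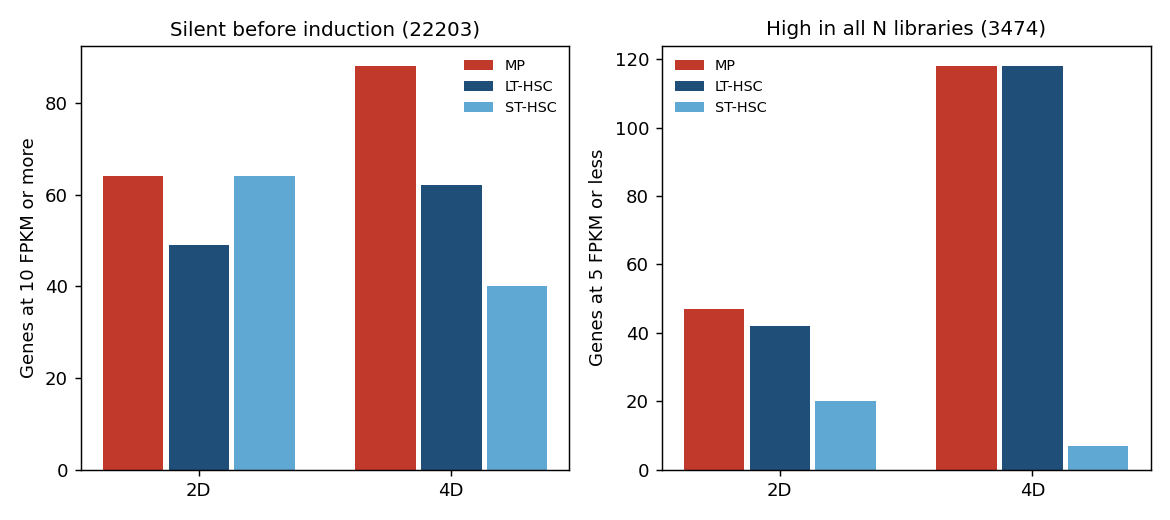
Left, number of genes at 10 FPKM or more in each D library, of 22203 genes below 1 FPKM in all N and uncultured blood libraries. Right, number at 5 FPKM or less in each D library, of 3474 genes at 20 FPKM or more in all N libraries. Each bar is 1 library. On day 4 the left count is 88 in MP, against 62 in LT-HSC and 40 in ST-HSC, and the right count is 118 in MP, against 118 in LT-HSC and 7 in ST-HSC.

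Neural genes were among those higher in induced MP. The list of 11 tested genes had been drawn up because induction raised them in these libraries, so its direction is not independent evidence. In D 5 lay above both stem cell types on both days, among them Dpysl3, Helt, Mobp and Tubb3, and none below, with a median of 0.973 in D and 0 in N cultures. The shares over all genes in D were 14.6% above and 11.1% below. Tubb3, the tubulin of neurons, had 133 and 50.1 FPKM in MP 2D and 4D, against 3.45 and 2.28 in LT-HSC and 30.6 and 0 in ST-HSC (difference 4.16 ± 0.82, limma adjusted p = 0.109). Dpysl3, a protein of axon growth, had 376 and 289 FPKM in MP 2D and 4D, against 98 and 101 in LT-HSC and 77.1 and 48.6 in ST-HSC. A list of 7 other tested genes that induction raised in these libraries had 1 above and 1 below both stem cell types in D and a median of 0.084. Its shares on each side were near those of all genes. Among its members Fetub, a liver-secreted protease inhibitor, had 1830 and 172 FPKM in MP 2D and 4D, against 64.4 and 72.1 in LT-HSC and 22.6 and 56.4 in ST-HSC (limma adjusted p = 0.281).

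Respiratory chain and ATP synthase genes lay slightly above stem cells in induced MP. Of 52 tested genes, 29 lay above both stem cell types on both days in D and 1 below (Atp5f1), against 14.6% and 11.1% over all genes. The median difference was 0.376 in D and 0.101 in N cultures, where 11 lay above and 4 below, and no member passed the test. Against LT-HSC alone 35 lay above and 3 below, and against ST-HSC alone 38 above and 3 below, where 27.2% (LT-HSC) and 27.5% (ST-HSC) of all genes lay above. Atp5b, the catalytic beta subunit of ATP synthase, had 5680 and 6980 FPKM in MP 2D and 4D, against 3300 and 4710 in LT-HSC and 3630 and 4240 in ST-HSC. Sdhd, a membrane anchor of complex II, had 465 and 523 FPKM in MP 2D and 4D, against 286 and 211 in LT-HSC and 295 and 243 in ST-HSC (difference 0.94 ± 0.23, limma adjusted p = 0.186).

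Growth genes showed smaller differences. Over all genes 14.6% lay above and 11.1% below both stem cell types in D, and 14.8% and 17.1% in N cultures. Of 39 G2/M genes, 11 lay above and 1 below in D, with medians of 0.299 in D and 0.293 in N cultures. Of 39 G1/S and replication genes, 6 lay above and 3 below in D, while in N cultures 24 lay below and none above, with medians of 0.0846 in D and -0.551 in N. Of 42 ribosome biogenesis genes, 13 lay above and 2 below in D (median 0.295), but against LT-HSC alone 13 lay above and 19 below. The G1/S balance turned likewise, with 8 above and 13 below against LT-HSC alone. Of 22 p53 targets and cell cycle inhibitors, 4 lay above in D (Bax, Cdkn1a, Cdkn2c and Plk3) and 2 below, and none passed the test. In N cultures 6 of the 22 lay above and 5 below. Cdkn1a, the inhibitor p21, had 217 and 233 FPKM in MP 2D and 4D, against 35.4 and 52.1 in LT-HSC and 62.7 and 30.7 in ST-HSC, with no overlap (difference 2.34 ± 0.55, limma adjusted p = 0.179).

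The reprogramming factors themselves did not pass the test between the cell types. Sox2 had 15.6 and 48.0 FPKM in MP 2D and 4D, against 61.3 and 48.9 in LT-HSC and 29.1 and 39.1 in ST-HSC, so MP was lowest on day 2 and between the stem cell types on day 4. Myc had 45.5 and 133 FPKM in MP 2D and 4D, against 67.4 and 189 in LT-HSC and 47.6 and 149 in ST-HSC, below both on each day (difference -0.32 ± 0.38, limma adjusted p = 0.857). Klf4 had 6.93 and 9.55 FPKM in MP 2D and 4D, against 11.2 and 8.16 in LT-HSC and 0.704 and 3.20 in ST-HSC. Pou5f1 stayed at or below 2.34 FPKM in all 6 libraries and was not tested. Transgene and endogenous transcripts cannot be told apart in these values.

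Across genes, induced MP was nearer to LT-HSC than to ST-HSC. The Pearson correlation of log2(FPKM + 1) over 12254 genes was 0.853 and 0.895 for MP and LT-HSC in 2D and 4D, against 0.819 and 0.841 for MP and ST-HSC. LT-HSC and ST-HSC correlated with each other at 0.837 and 0.853, so induced LT-HSC was nearer to MP than to ST-HSC. In N cultures MP was nearer to ST-HSC, with 0.828 and 0.806 for MP and LT-HSC on days 2 and 4, against 0.905 and 0.882 for MP and ST-HSC. There LT-HSC and ST-HSC correlated at 0.873 and 0.87. These correlations are across genes within pairs of libraries, and genes are not independent replicates. At least 4-fold differences of MP to LT-HSC numbered 1238 in 2D and 955 in 4D, and of MP to ST-HSC 1633 and 1364. Between ST-HSC and LT-HSC they numbered 1385 and 1294.

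The MP difference did not pass a test of change between days 2 and 4 of induction. Of 12089 genes tested none passed in limma on the 6 D libraries, where 2 residual degrees of freedom were available, and 411 had an unadjusted p below 0.05. Aldh3a1, an aldehyde dehydrogenase, was among the largest changes by size, with 290 and 555 FPKM in MP 2D and 4D, against 240 and 3.25 in LT-HSC and 205 and 0 in ST-HSC. Its groups were near each other on day 2 and far apart on day 4.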

How the data were processed

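RNA was measured in 18 mouse libraries, of which the 15 blood libraries were used. Values are FPKM per gene as deposited by the authors, made with TopHat and Cufflinks on mm9 per the submitters' processing notes, whose versions are not given in the sources. No depth could be read from the low values. The table held 36818 entries, and 158 symbols on several entries were summed.

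The 12254 genes that averaged 1 FPKM or more in the 12 cultured libraries were fitted on log2(FPKM + 1) with limma 3.58.1 in R 4.3.3 (trend and robust). The model had a term for each of 4 conditions and for MP in D and in N (6 residual degrees of freedom). Its spread comes from LT-HSC against ST-HSC and from days. "Above" or "below both stem cell types" is a description without a test.

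Members and lists were chosen with earlier results of these data known. Of 781 listed genes, 776 were found and 613 tested. Genes named were the largest differences among calls, filled to 5 each way by smallest p, the 8 largest N calls each way, the 5 largest day changes each way, the 4 factors, and called list members with up to 4 more per list. Further list members named beside a count, and the marker genes of the library checks, were chosen after their values were seen. Some genes that the rules cover are not reported here. Alternatives covered pseudocount, filter, scaling, model and left-out libraries. Promoter sequences are from RefSeq, whose build differs from that of the FPKM values, so no position of one was set against the other.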

Additional observations from a re-analysis of the deposited data

Results flagged for a closer look

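Among the 647 named and listed genes, 17 had MP outside both stem cell types on both days on opposite sides in D and in N cultures. For 9 of them the fitted difference was at least 2-fold in both, which does not require a 2-fold gap to each stem cell library. None passed the limma test of the D minus N difference after adjustment over all genes.

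Cebpd, a C/EBP factor of the myeloid lineage, had 3.10 and 2.06 FPKM in MP 2D and 4D, against 15.2 and 5.16 in LT-HSC and 19.7 and 2.33 in ST-HSC. In N cultures it had 41.4 and 48.7 FPKM in MP, against 2.17 and 0 in LT-HSC and 3.45 and 5.53 in ST-HSC (D minus N difference -5.25, limma adjusted p = 0.225). Csf2ra had a D minus N difference of -4.59 (limma adjusted p = 0.225), Emb, the cell adhesion protein embigin, one of -3.62 (limma adjusted p = 0.533) and Il6st, the gp130 receptor chain, one of -2.70 (limma adjusted p = 0.472). AY036118, a transcript with no stated role here, had -2.71 (limma adjusted p = 0.225).

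The other genes were higher in MP in D and lower in MP in N cultures. Jup, the junction protein plakoglobin, had 20.9 and 38.8 FPKM in MP 2D and 4D, against 3.80 and 0 in LT-HSC and 19.6 and 6.02 in ST-HSC, and was listed at 0 in MP N cultures (D minus N difference 4.68, limma adjusted p = 0.476). Sox4 had 4.28 (limma adjusted p = 0.225), Bcl2, the survival protein, 3.61 (limma adjusted p = 0.283) and Slc2a3, a glucose transporter, 3.26 (limma adjusted p = 0.281).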

How the results depend on the processing

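The 9 calls in D became 0 with a pseudocount of 0.1, a filter at a mean of 5 FPKM or the 6 D libraries alone, 37 with a pseudocount of 5, 45 with no filter, 31 without limma's trend and robust options, 21 with 15 blood libraries, 1 against LT-HSC alone and 158 against ST-HSC alone. The 24 calls in N became 92 with a pseudocount of 5, 59 with no filter, 11 with a filter at 5 FPKM, 38 without trend and robust options, 0 with the 6 N libraries alone, 13 with 15 libraries, 250 against LT-HSC alone and 0 against ST-HSC alone. Leaving out 1 library gave 0 to 37 calls in D, 0 to 78 in N and 0 to 3 for D minus N. In N it gave 0 without MP 4N, 4 without LT-HSC 4N, 15 without LT-HSC 2N and 78 without ST-HSC 4N. Where a term was left with 1 library, that library was assumed to vary like the others. The cause was not tested. Under quantile normalization and upper quartile scaling the D count was 12 and 9, with all 9 genes shared, and the median over all genes was 0.0098 and -0.0193.

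The share of starting differences that remained was 1.07% and 6.10% with the 2-fold condition and stayed near its main value under the other settings run. The 1784 genes above both stem cell types became 3331 against LT-HSC alone and 3371 against ST-HSC alone, and the 1366 below became 3087 and 3275, since 1 condition in place of 2 has to be met. For the D minus N difference the counts were 23 with a pseudocount of 5, 10 without trend and robust options and 5 against LT-HSC alone. The Klf4 difference in D reversed to -0.206 against LT-HSC alone, beside 0.784 against both stem cell types. That of Sox2, -0.625 with all libraries, ran between -1.38 without MP 4D and 0.132 without MP 2D, and none of these passed the test. Against LT-HSC alone the balance of 2 lists also turned, with 13 above and 19 below for ribosome biogenesis and 8 above and 13 below for G1/S genes. No paired analysis was possible because each condition had 1 library per cell type. With 25 cells a library and unknown depth, no counting error can be given for low levels or for levels listed at 0.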

Other observations

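Glycolysis genes lay on both sides in induced MP, as they did in N cultures. Of 21 tested genes, 6 lay above both stem cell types on both days and 4 below, and none passed the test. Over all genes 14.6% lay above and 11.1% below in D. In N cultures 6 of the 21 lay above and 3 below. Pfkp, the platelet form of phosphofructokinase, had 156 and 315 FPKM in MP 2D and 4D, against 114 and 121 in LT-HSC and 35.9 and 108 in ST-HSC. Pdk1, a kinase that holds back pyruvate dehydrogenase, had 6.18 and 25.8 FPKM in MP 2D and 4D, against 47.1 and 32.0 in LT-HSC and 71.2 and 71.9 in ST-HSC (difference -1.96 ± 0.49, limma adjusted p = 0.201). MP was thus above both stem cell types for one and below both for the other.

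Over all genes tested 14.6% lay above and 11.1% below both stem cell types on both days in D. Of 16 tested WNT pathway genes, 1 lay above and 3 below (median 0.141), and against LT-HSC alone 6 lay above and 6 below. The WNT ligand Wnt2, which is not on that list, passed the test as higher in MP. Of 15 tested epithelial junction and keratin genes, 1 (Jup) lay above and 3 below (median -0.666). No member of either list passed the test, and those given next were picked after their values were seen. Lef1, a nuclear effector of WNT signalling listed at 0 in all 6 N libraries, had 0.5 and 3.35 FPKM in MP 2D and 4D, against 17.8 and 9.75 in LT-HSC and 10.9 and 7.51 in ST-HSC. Tcf7l1, another factor of that family, had 2.41 and 1.24 FPKM in MP 2D and 4D, against 20.1 and 5.16 in LT-HSC and 31.9 and 5.03 in ST-HSC. Epcam, an epithelial adhesion protein, had 0.953 and 2.29 FPKM in MP 2D and 4D, against 47.5 and 3.85 in LT-HSC and 43.8 and 5.46 in ST-HSC, so the gap was wide on day 2 and narrow on day 4. Of 20 immediate early genes, 5 lay below both stem cell types on both days in D and none above, with a median of -0.693. Against ST-HSC alone 12 lay lower and none higher, beside 26.7% of all genes lower. Against LT-HSC alone 5 lay lower and 2 higher, beside 25.2% of all genes lower.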
